A study of Mus musculus with 21 samples.

Results

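The comparison set mouse macrophages exposed for 2 h to amorphous silica particles of 10 nm at 50 µg/ml against untreated cells of the same line. Its members are 6 of the series' 21 arrays, 3 of each group, taken by the sample titles, with all 22626 probe sets that are not array controls. The cells were RAW 264.7, a macrophage-like mouse line that is itself a tumour line and not a primary cell. The other arrays held 10 nm silica at 5 and 20 µg/ml and 500 nm silica at 250, 500 and 1000 µg/ml, each for 2 h with 3 arrays, and both lower 10 nm doses and the highest 500 nm dose were also compared. Exposure was in serum-free medium, and the labels do not say whether the untreated cells were also moved to it. In a comparison with untreated cells the particles and the change of medium therefore cannot be told apart. The direct comparisons between particle groups hold no untreated array. No agent other than the particles is named. Whether the 3 arrays of a group stand for separate cultures is not stated either, so every p-value rests on array-to-array spread alone, part of which may be technical. The arrays measured the messenger RNA of whole cultures, in which fewer cells of a type and less RNA per cell cannot be told apart.

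Macrophages take up particles through scavenger and phagocytic receptors, and contact with a particle or with damaged membrane is known to start signalling through MAP kinases and NF-kB. Immediate early genes answer first: genes such as those of the Fos, Jun, Egr, Nr4a and Klf transcription factors are switched on by proteins the cell already holds, and their messages are short-lived. Products of the response also include chemokines that recruit neutrophils and monocytes. Feedback proteins among them are the Dusp phosphatases, which switch MAP kinases off, and Zfp36, which marks AU-rich messages for decay.

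Values are log2 RMA values, a summary of each probe set's brightness after background correction, and a change is the mean of the 3 treated arrays minus the mean of the 3 untreated ones on that scale, with its standard error (SE). A probe set was called when limma's adjusted p was under 0.05, and a gene took the value of its brightest probe set. The cells carried the macrophage markers: 10 of 12 lay above the median level, none was called, and their summed linear level ran from 42583 to 48889 on untreated and from 40362 to 45232 on treated arrays, with Mertk and Itgam below the median. Markers of other cell types lay below the median level, except Ighm, Cd28, Acp5 and Nfatc1. Ighm averaged 11.39 in untreated and 10.83 in treated cells and was called lower, as was Cd28, while Acp5 and the dim neutrophil receptor Cxcr2 were called higher. The Ighm call was lost with arrays scaled to a common SD and the Cd28 call with quantile normalization, and the Acp5 and Cxcr2 calls were each lost under 6 alternatives (adjusted p up to 0.201 and 0.181). The median change of the lists for other cell types ran from 0.15 (epithelial cells) to 0.36 (neutrophils, summed level 135 to 153 untreated and 160 to 217 treated), and its part in the results was not tested. Array medians were 6.23 to 6.28 in untreated and 6.18 to 6.22 in treated cells. The SD of the values on an array was 2.59 to 2.66 and 2.46 to 2.60 in the same order. Correlations across probe sets, which are not independent replicates, were 0.982 to 0.997 within the untreated group, 0.980 to 0.997 within the treated group and 0.965 to 0.990 between them. The replicate 3 array had the lowest SD in 7 of the 7 groups, and the 3 prime minus 5 prime signal of actin, which rises as RNA degrades, was 1.12 on the untreated and 1.04 on the treated replicate 3 array, against 0.29, 0.30, 0.36 and 0.43 on the other 4. The part of these array differences in the results was not tested, and results that rest on 1 array are given with and without it.

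Between cells with 10 nm silica at 50 µg/ml and untreated cells, 3983 of the 22626 probe sets (17.6%) differed, 1471 of them higher and 2512 lower with silica. By gene, 849 of 12393 were called higher (6.85%) and 1502 lower (12.1%). Falls were more numerous, but the largest changes were rises. 139 genes rose by at least 2-fold (1.12%) and 142 fell by as much (1.15%), while 37 rose and 3 fell by at least 4-fold, and 24 rose and 0 fell by at least 5-fold. The groups did not overlap, with all 3 treated arrays above or below all 3 untreated ones, in 2090 genes on the higher side (16.9%) and 2035 on the lower side (16.4%), and 2223 of the 2351 called genes were among them. The median change over all genes was 0.04. The counts without a size bound moved with the fit: a block for the replicate number gave 1951 genes higher and 2295 lower, array weights gave 3269 and 3009, and the 6 arrays alone gave 196 and 380. Without untreated replicate 1, untreated replicate 2 or treated replicate 3, 538, 501 and 475 genes were higher. The balance of small changes depended on scaling: with each array centred on its own median, 48.3% of called genes were higher instead of 36.1%, and the median of all genes moved to 0.10. With each array scaled to a common median and SD, 56.1% were higher and the median was 0.11. The 2-fold counts moved less under these settings, to 154 and 166 genes higher and 113 and 107 lower.

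**Figure D1:**
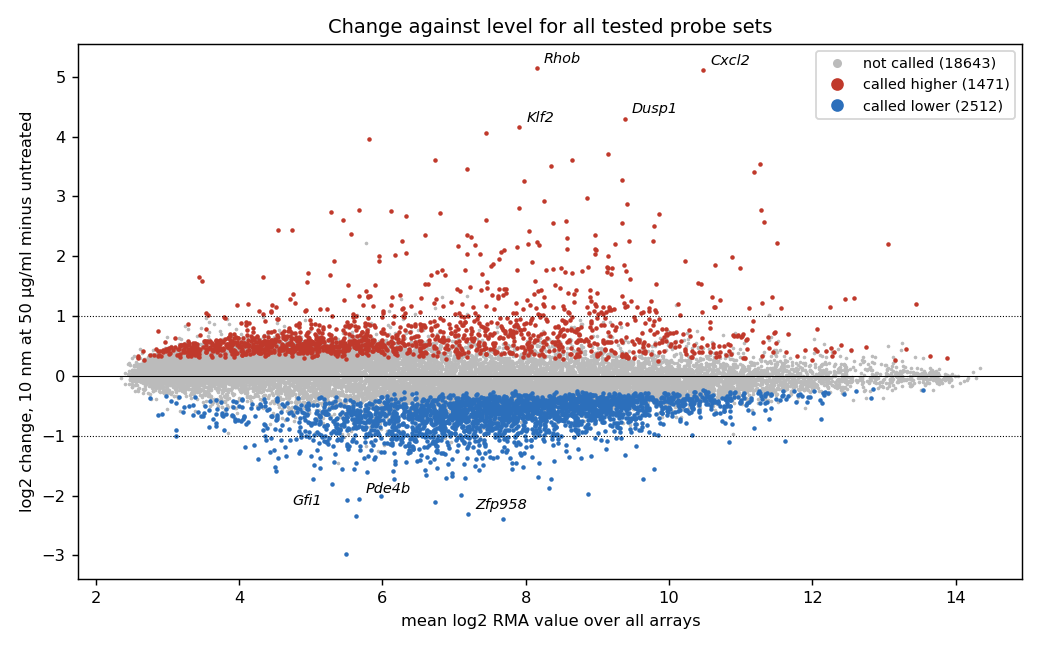
Each point is 1 of 22626 probe sets, with its mean log2 RMA value over all 21 arrays on the x axis and its log2 change (10 nm silica at 50 µg/ml minus untreated) on the y axis. Red points were called higher (1471), blue points lower (2512), dotted lines mark a 2-fold change, and the rises reach further from 0 than the falls.

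The size of the small changes varied with brightness. When probe sets were ranked by mean level and cut into 5 groups of equal size, the median change was 0.13 in the dimmest group and 0.21 in the next, -0.03 in the middle one, and -0.20 and -0.09 in the brighter ones. The treated arrays had the lower SD, as given above, and the part of that in the small changes was not tested.

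A cytoskeletal GTPase and a neutrophil chemokine stood at the top of the ranking. Rhob, a small GTPase that acts on actin and on endosome traffic and is itself an immediate early gene, had values of 5.86, 5.86 and 5.51 on the untreated arrays and 11.30, 11.06 and 10.28 on the treated arrays. The lowest treated array stood far above the highest untreated one, and the change was 5.14 ± 0.28 (adjusted p = 3.39e-10), a 35.3-fold rise. Cxcl2, a chemokine that attracts neutrophils, read 6.74, 6.89 and 7.22 untreated and 11.88, 11.95 and 12.36 treated, a change of 5.11 ± 0.13 (adjusted p = 4.48e-15). Again the groups were far apart. Dusp1, a phosphatase that inactivates p38 and JNK, moved from 6.84, 6.74 and 6.86 to 11.26, 11.08 and 11.00, a change of 4.30 ± 0.09. Klf2, a Kruppel-like factor known to restrain macrophage activation, moved from 6.22, 6.28 and 5.94 to 10.45, 10.31 and 10.15, a change of 4.16 ± 0.13. In both genes the arrays of a group lay close together and the groups far apart.

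Zinc finger and orphan receptor factors followed. Egr2, a zinc finger factor of the early growth response family, read 7.89, 7.76 and 8.50 untreated and 11.62, 11.76 and 11.89 treated, a change of 3.71 ± 0.15. Nr4a1, an orphan nuclear receptor that binds DNA without a known hormone, read 7.51, 7.42 and 7.13 and 11.26, 11.14 and 10.49, a change of 3.61 ± 0.18. The replicate 3 array was the lowest treated array for Nr4a1 and for Rhob, and still lay above all untreated arrays. The promoters of these 6 genes, the largest rises that have an entry in the table used, are shown here so that the factor motifs can be seen in place. Each line gives the 250 bases before the annotated start (RefSeq, GRCm38.p6, written along the gene's strand), with matches to the motifs listed further on in capitals.
Rhob, chr12:8500010-8500259, minus strand: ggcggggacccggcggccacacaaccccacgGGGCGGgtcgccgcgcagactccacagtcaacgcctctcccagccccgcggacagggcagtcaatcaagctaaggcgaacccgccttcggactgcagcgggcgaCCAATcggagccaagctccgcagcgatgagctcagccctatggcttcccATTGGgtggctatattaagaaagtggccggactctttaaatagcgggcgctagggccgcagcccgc
Cxcl2, chr5:90903649-90903898, plus strand: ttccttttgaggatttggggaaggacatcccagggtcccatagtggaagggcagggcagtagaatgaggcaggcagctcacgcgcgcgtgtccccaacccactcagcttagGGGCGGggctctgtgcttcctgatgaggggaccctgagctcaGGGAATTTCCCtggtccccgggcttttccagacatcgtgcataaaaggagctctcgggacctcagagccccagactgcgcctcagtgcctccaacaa
Dusp1, chr17:26508473-26508722, minus strand: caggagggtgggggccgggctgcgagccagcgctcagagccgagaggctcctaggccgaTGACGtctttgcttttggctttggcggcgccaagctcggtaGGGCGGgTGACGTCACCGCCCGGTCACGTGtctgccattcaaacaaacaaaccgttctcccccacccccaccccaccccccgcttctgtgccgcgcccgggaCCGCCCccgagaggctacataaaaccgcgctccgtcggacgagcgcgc
Klf2, chr8:72318812-72319061, plus strand: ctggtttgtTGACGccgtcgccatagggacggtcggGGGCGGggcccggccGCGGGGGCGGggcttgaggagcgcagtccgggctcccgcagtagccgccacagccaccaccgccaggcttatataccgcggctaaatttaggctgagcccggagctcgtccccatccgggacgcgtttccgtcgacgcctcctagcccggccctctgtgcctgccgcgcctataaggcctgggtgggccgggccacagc
Egr2, chr10:67535249-67535498, plus strand: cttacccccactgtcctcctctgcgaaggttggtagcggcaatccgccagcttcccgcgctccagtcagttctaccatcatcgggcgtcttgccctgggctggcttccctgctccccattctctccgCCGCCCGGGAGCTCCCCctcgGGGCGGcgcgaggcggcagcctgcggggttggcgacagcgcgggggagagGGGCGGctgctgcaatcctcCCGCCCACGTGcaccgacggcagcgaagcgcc
Nr4a1, chr15:101266596-101266845, plus strand: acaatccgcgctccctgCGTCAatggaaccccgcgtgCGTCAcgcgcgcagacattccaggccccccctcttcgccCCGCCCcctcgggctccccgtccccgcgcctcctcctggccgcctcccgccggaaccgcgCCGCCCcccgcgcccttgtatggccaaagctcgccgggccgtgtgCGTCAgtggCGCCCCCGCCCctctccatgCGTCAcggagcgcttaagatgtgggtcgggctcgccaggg
The Cxcl2 promoter held a kappa B match at bases -97 to -88 relative to the start, read on both strands with an offset of 1 base. Dusp1 held a full cyclic AMP response element (CRE), TGACGTCA, at -143 to -136, an E-box beside it and a further TGACG at -191 to -187. Nr4a1 held TGACG at 4 places, all on the opposite strand, and an EGR match at -60 to -52. Klf2 held an EGR match at -199 to -191 that overlaps a GC box, and Egr2 held overlapping kappa B matches at -117 to -107. Rhob held CCAAT at -115 to -111 and, on the opposite strand, at -66 to -62. Egr2 has 5 entries in the table, of which the first is printed, and the array does not tell which start was used.

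The largest falls were smaller than the largest rises. Zfp958, a zinc finger gene, read 8.05, 8.15 and 8.54 on untreated and 6.16, 5.83 and 5.81 on treated arrays, a change of -2.31 ± 0.16 (adjusted p = 1.22e-08). Gfi1, a repressor that guides the choice between granulocyte and monocyte fates, read 6.39, 6.47 and 6.80 and 4.34, 4.36 and 4.76, a change of -2.07 ± 0.16. Pde4b, the phosphodiesterase that degrades cyclic AMP in macrophages, read 6.55, 6.79 and 6.51 and 4.98, 4.31 and 4.41, a change of -2.05 ± 0.15. No array of one group reached the other in any of these genes, and a second, dimmer Pde4b probe set fell by 2.98. Their promoters are shown in the same way.
Zfp958, chr8:4612920-4613169, plus strand: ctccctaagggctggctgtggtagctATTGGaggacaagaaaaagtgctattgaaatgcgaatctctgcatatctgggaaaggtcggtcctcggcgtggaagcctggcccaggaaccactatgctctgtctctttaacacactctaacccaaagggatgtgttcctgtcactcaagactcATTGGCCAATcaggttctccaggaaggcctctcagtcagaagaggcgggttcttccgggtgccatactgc
Gfi1, chr5:107725806-107726055, minus strand: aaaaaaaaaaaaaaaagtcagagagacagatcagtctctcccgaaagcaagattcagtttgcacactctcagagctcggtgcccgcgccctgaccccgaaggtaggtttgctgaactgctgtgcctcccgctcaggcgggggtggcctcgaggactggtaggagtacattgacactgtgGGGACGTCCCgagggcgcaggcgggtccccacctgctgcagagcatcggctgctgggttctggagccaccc
Pde4b, chr4:102421305-102421554, plus strand: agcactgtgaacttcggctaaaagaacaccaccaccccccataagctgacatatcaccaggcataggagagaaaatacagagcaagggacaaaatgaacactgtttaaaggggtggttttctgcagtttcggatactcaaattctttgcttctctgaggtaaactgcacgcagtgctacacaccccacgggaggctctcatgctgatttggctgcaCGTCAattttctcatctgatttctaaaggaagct
Zfp958 held CCAAT at 3 places, 2 of them back to back on opposite strands at -70 to -61. Gfi1 held a kappa B match at -71 to -62, and Pde4b held TGACG on the opposite strand at -34 to -30. These genes have 3, 2 and 4 entries, of which the first is printed.

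**Figure D2:**
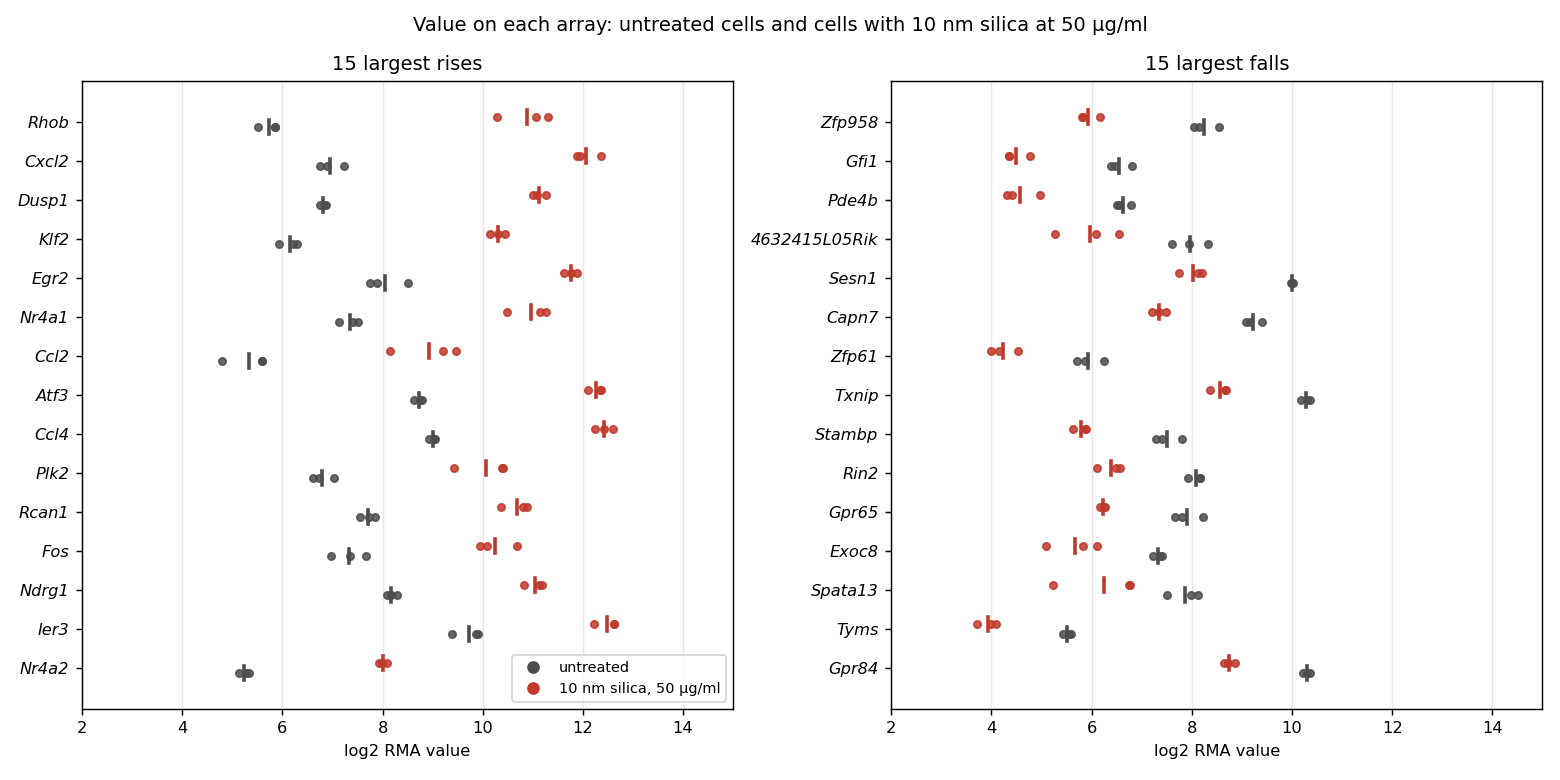
Each dot is 1 array's log2 RMA value (x axis) for a gene (y axis); short bars are means, grey is untreated (n = 3) and red is 10 nm silica at 50 µg/ml (n = 3). The left panel holds the 15 genes with the largest rise and the right panel the 15 with the largest fall, and no grey dot crosses a red one within a gene because genes were chosen without overlap.

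Motifs were counted in the 300 bases from 250 before to 50 after each start, on both strands, for every measured gene with an entry (9887 of 12393 genes, 12566 promoters). The genes that rose at least 2-fold had 150 promoters (112 of 139 genes) and those that fell at least 2-fold had 165 (116 of 142 genes). The full CRE TGACGTCA stood in 7.33% of the promoters of the rising genes, 1.82% of the falling genes and 2.51% of all measured genes. Its part TGACG, counted wherever it stood and so also inside the CRE, was in 36.7%, 28.5% and 27.2% in the same order. The CArG box of serum response factor was in 4%, 1.82% and 1.47%, the EGR motif GCGNGGGCG in 16.7%, 7.27% and 9.22%, the kappa B site in 15.3%, 10.9% and 10.2%, and the E-box CACGTG in 14.7%, 5.45% and 9.11%. The AP-1 motif TGANTCA was in 9.33%, 4.85% and 6.45%, and the NRF2 motif TGACNNNGC in 17.3%, 13.9% and 13.8%. GGGCGG, the GC box, which overlaps the EGR motif, was in 67.3%, 50.9% and 55.4%, CCAAT in 37.3%, 43.6% and 37.1%, and TATAAA in 12.7%, 6.06% and 9.81%. Over all 32851 promoters of the table the shares were 1.79% for TGACGTCA, 20.8% for TGACG, 1.63% for the CArG box, 5.55% for EGR, 8.46% for kappa B, 7.15% for the E-box, 7.81% for TGANTCA, 12.4% for TGACNNNGC, 35.7% for GGGCGG, 37.4% for CCAAT and 13.6% for TATAAA. Promoters of the rising genes had a median GC content of 60.3%, those of falling genes 58% and those of all measured genes 59%. The shares are descriptions of these windows, and a match is not a shown binding site.

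Over all genes 6.85% were called higher and 12.1% lower, shares that stand beside the counts of each list below. AP-1 factors, dimers of Fos, Jun and related leucine zipper proteins, were mostly higher. Of 18 measured members 12 were called higher (66.7%) and 2 lower (11.1%), with a median change of 1.16. Atf3, a stress-induced repressor of the family, read 8.62, 8.75 and 8.79 untreated and 12.36, 12.35 and 12.09 treated, a change of 3.54 ± 0.11. Fos read 6.97, 7.35 and 7.66 and 10.09, 9.95 and 10.69, a change of 2.92 ± 0.19, and Jun rose by 2.71 ± 0.12. All treated arrays of these genes lay above all untreated ones. Fosl1 rose by 2.23, Maff, a small Maf protein that lacks an activation domain, by 2.18, Nfil3 by 1.84, Junb by 1.74 and Fosb by 1.36. The lower calls were Cebpd, a C/EBP factor that fell by 0.99 ± 0.14, and Jdp2, a repressor of AP-1 that fell by 0.62. The Jdp2 call was lost under 8 of 16 alternatives, among them median centring, quantile normalization, a common SD and the 6 arrays alone (adjusted p up to 0.233).

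Among the Egr, Nr4a and Klf factors 11 of 18 were called higher and 0 lower, with a median of 1.06. Nr4a2 read 5.27, 5.33 and 5.13 and 7.93, 8.09 and 7.99, a change of 2.76 ± 0.13, and its second probe set rose by 3.96. Klf6 rose by 2.31, Egr1 by 2.23, Klf9, a factor that responds to steroid hormones, by 1.71, and Nab2, the corepressor that binds Egr proteins, by 1.07 (adjusted p = 0.0565 with only the 6 arrays). Of the other immediate early genes 13 of 20 were called higher and 0 lower, with a median of 1.59. Ier3, a survival factor, read 9.91, 9.87 and 9.39 and 12.63, 12.62 and 12.22, a change of 2.77 ± 0.14. Gem, a small GTPase, rose by 2.68, Ptgs2, the inducible cyclooxygenase that starts prostaglandin synthesis, by 2.21, Arc by 2.05 and Btg2, a cofactor of deadenylation, by 1.76. Btg2 read 8.23, 8.49 and 7.23 and 10.25, 9.95 and 9.02, and its call was lost when only the 6 arrays were fitted (adjusted p = 0.0636).

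**Figure D3:**
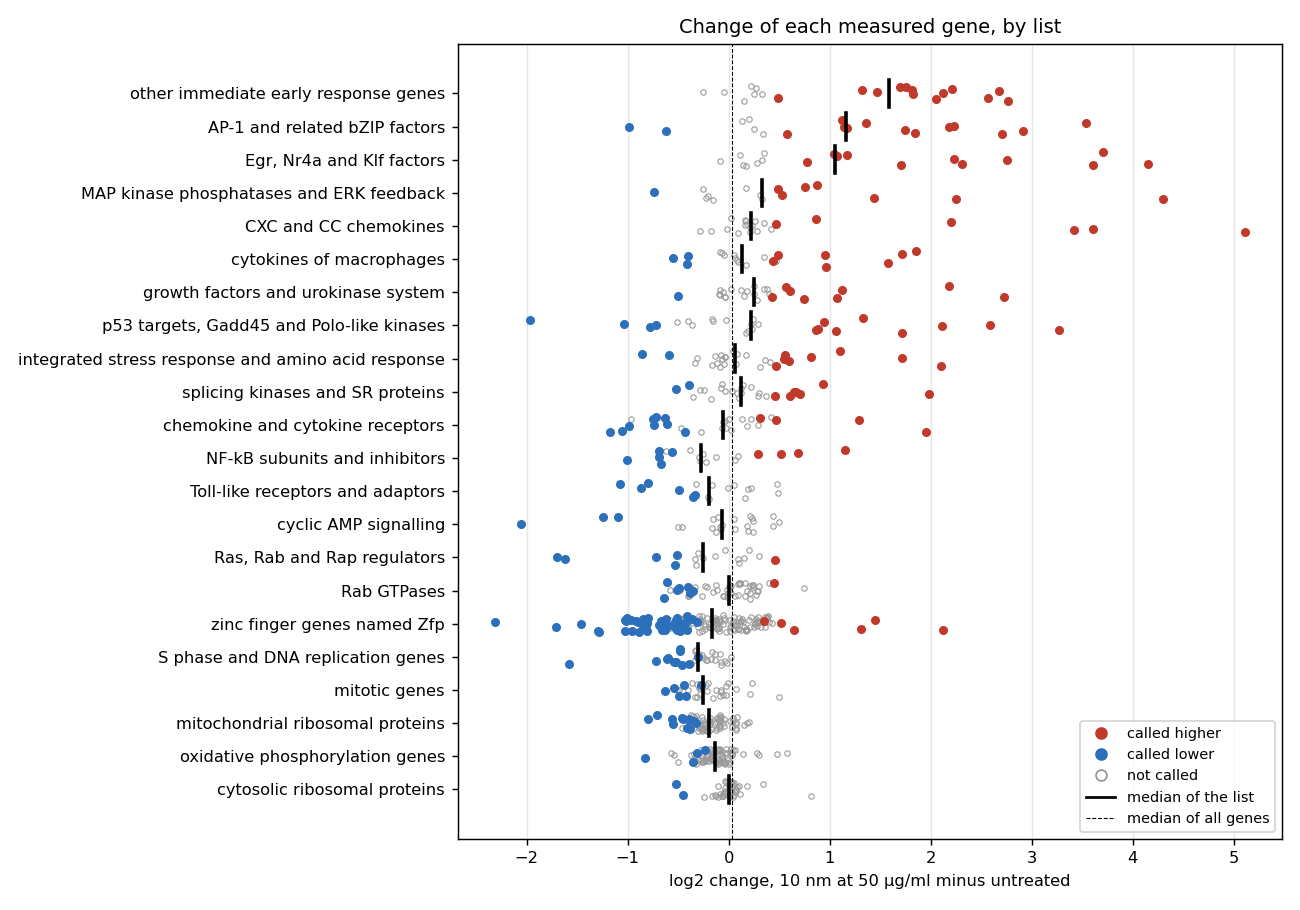
Each dot is 1 measured gene, with its log2 change (10 nm silica at 50 µg/ml minus untreated) on the x axis and its list on the y axis; filled red and blue dots were called higher and lower, open dots were not called, black bars are list medians and the dashed line is the median of all genes (0.04). The lists of early factors lie mostly to the right, and the Zfp and S phase lists have most of their called genes on the left.

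Feedback on MAP kinase signalling rose in part. Of 15 phosphatases and Sprouty-type inhibitors 7 were called higher and 1 lower, with a median of 0.33. Dusp2, a nuclear ERK phosphatase, rose by 2.25 ± 0.17 and Dusp16, a JNK phosphatase, by 1.44 ± 0.10. Dusp6, the cytosolic ERK phosphatase, fell by 0.74 ± 0.15 (adjusted p = 0.00167), from 7.70, 7.65 and 7.89 to 7.27, 6.95 and 6.80. The treated Dusp6 arrays all lay below the untreated ones. Rcan1, an inhibitor of calcineurin, read 7.86, 7.72 and 7.56 and 10.81, 10.89 and 10.36, a change of 2.97 ± 0.18. Of 8 measured Rgs genes, which speed the shut-off of G proteins, 4 were called higher and 3 lower, or 4 and 2 with quantile normalization and 4 and 1 with a common SD. Rgs1 rose by 2.57 ± 0.09 and Rgs16 by 1.54 ± 0.15, while Rgs18 fell by 0.94 ± 0.22. The Rgs18 call was lost with only the 6 arrays (adjusted p = 0.154), and its second probe set fell by 0.38 and was not called.

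Chemokine genes rose in a narrow set. Of 22 measured 6 were called higher and 0 lower, with a median of 0.22. Ccl2, which recruits monocytes, read 5.59, 5.60 and 4.79 untreated and 9.46, 9.20 and 8.14 treated, a change of 3.61 ± 0.30. Ccl4, a chemokine of the CC family, read 8.92, 9.03 and 9.05 and 12.59, 12.41 and 12.24, a change of 3.42 ± 0.12. Ccl4 was already bright in untreated cells, while Ccl2 was dim there, and the groups did not overlap in either. Ccl3, the neighbour of Ccl4 in the genome, rose by 2.20 and Ccl7 by 0.86, the latter call being lost with only the 6 arrays (adjusted p = 0.0548). Cxcl10, an interferon-inducible chemokine, changed by 0.02 ± 0.21 (adjusted p = 0.956) and was not called.

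Of 20 cytokine genes 7 were called higher and 3 lower, with a median of 0.13. Tnf, the main early inflammatory cytokine of macrophages, read 9.40, 9.38 and 9.11 and 11.29, 11.23 and 10.95, a change of 1.86 ± 0.12. Lif, a cytokine of the interleukin 6 family, rose by 1.71 ± 0.16, and Il1rn, the antagonist of the interleukin 1 receptor, by 1.57 ± 0.30. Il1b, the interleukin that the antagonist blocks, changed by 0.35 ± 0.20 (adjusted p = 0.239). Il18 fell by 0.40 and Tnfsf13b, a survival factor of B cells, by 0.55. Both calls were lost with only the 6 arrays (adjusted p = 0.128 and 0.110), and that of Il18 also with quantile normalization or a common SD.

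Of 27 chemokine and cytokine receptors 4 were called higher and 9 lower, with a median of -0.06 that became 0.03 with a common SD; over all genes 849 were called higher and 1502 lower. Cxcr4, the receptor of Cxcl12, read 5.93, 6.08 and 6.24 and 8.22, 7.79 and 8.11, a change of 1.96 ± 0.17, and Ccr1 rose by 1.29 ± 0.16. Tgfbr2, a TGF-beta receptor chain, fell by 0.99 ± 0.09, Cx3cr1 by 0.74, Il6st, the shared chain of the interleukin 6 family, by 0.74, and Ifnar2 by 0.72. Other Tgfbr2 and Ccr1 probe sets were not called. The Il6st and Ifnar2 calls were lost without treated replicate 3 and with only the 6 arrays (adjusted p up to 0.123 and 0.0864), and the Cx3cr1 call with a common SD (adjusted p = 0.0643). Il13ra1 fell by 1.17 ± 0.33 and Ifngr2 by 1.05 ± 0.31. Neither call held without untreated replicate 1, untreated replicate 2 or treated replicate 3, or with only the 6 arrays (adjusted p up to 0.126 and 0.162).

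Of 17 Toll-like receptors and adaptors 0 were called higher and 6 lower, with a median of -0.19. Scaling arrays to a common SD gave 2 higher and 4 lower with a median of -0.01. The replicate block gave 2 and 6, and array weights 3 and 8. Tlr4, the receptor of bacterial lipopolysaccharide, read 7.73, 7.82 and 8.40 and 6.99, 6.90 and 6.82, a change of -1.08 ± 0.15 (adjusted p = 7.32e-05). Tlr2, which senses lipoproteins, read 11.28, 11.20 and 10.90 and 10.47, 10.43 and 10.09, a change of -0.80 ± 0.12. In both genes every treated array lay below every untreated one. Among 18 NF-kB subunits and inhibitors 4 were called higher and 5 lower. Nfkbiz, a nuclear I-kappa-B protein, rose by 1.16 ± 0.21, while Nfkbie fell by 1.01 ± 0.18 and Birc3, a ubiquitin ligase of the pathway, by 0.67. The Nfkbiz call was lost with only the 6 arrays (adjusted p = 0.0784). Of 24 scavenger and phagocytic receptors 2 were called higher and 2 lower (8.33% each), near the 6.85% and 12.1% over all genes. Olr1, a receptor of oxidised lipoprotein, read 3.69, 3.79 and 4.58 and 6.48, 6.22 and 6.68, a change of 2.44 ± 0.19, and Msr1, the class A scavenger receptor, changed by -0.18 ± 0.09 (adjusted p = 0.194).

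Of 27 actin and serum response factor target genes 3 were called higher (11.1%) and 1 lower (3.7%), beside 6.85% and 12.1% over all genes. Of 17 Ras, Rab and Rap regulators 1 was called higher and 5 lower. Rin2, an exchange factor for Rab5 on early endosomes, read 7.93, 8.17 and 8.16 and 6.49, 6.57 and 6.10, a change of -1.70 ± 0.13. Spata13, an exchange factor for Rac1 and Cdc42, read 8.12, 7.98 and 7.50 and 6.77, 6.74 and 5.24, a change of -1.62 ± 0.29. The lowest Spata13 value came from 1 treated array, and its call was lost with only the 6 arrays (adjusted p = 0.0821). Exoc8, a subunit of the exocyst that tethers vesicles, read 7.22, 7.37 and 7.40 and 6.10, 5.84 and 5.09, a change of -1.66 ± 0.19.

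2 receptors coupled to G proteins were among the 15 largest falls. Gpr65, a receptor activated by protons, read 7.81, 7.67 and 8.22 and 6.27, 6.17 and 6.25, a change of -1.67 ± 0.12. Gpr84, a receptor of medium-chain fatty acids, read 10.30, 10.36 and 10.21 and 8.73, 8.64 and 8.86, a change of -1.55 ± 0.09. Neither gene's groups overlapped. Of 23 cyclic AMP genes 0 were called higher and 3 lower, beside 12.1% lower over all genes, and the median of -0.07 became 0.15 with a common SD. Beside Pde4b these were Pde7a, another phosphodiesterase, which fell by 1.24 ± 0.30, and Prkar2a, a regulatory subunit of protein kinase A, which fell by 1.09 ± 0.34. The Pde7a call was lost with only the 6 arrays (adjusted p = 0.0561). The Prkar2a call was lost without untreated replicate 1, untreated replicate 2 or treated replicate 3 and with only the 6 arrays (adjusted p up to 0.159).

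Growth factor and protease genes rose in 8 of 25 cases and fell in 1, with a median of 0.25. Hbegf, a shed ligand of the EGF receptor, read 5.13, 5.30 and 5.37 and 8.15, 7.72 and 8.13, a change of 2.73 ± 0.19. Plaur, the receptor of urokinase, rose by 2.19 ± 0.31 and Plau, urokinase itself, by 1.12 ± 0.12. The treated arrays of Hbegf lay far above the untreated ones. Cd44, the hyaluronan receptor, rose by 1.54 ± 0.17 and Sdc4, a heparan sulfate proteoglycan of focal adhesions, by 1.44 ± 0.16. A second Sdc4 probe set rose by 0.50 and was not called.

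Stress genes moved in both directions. Of 25 p53 targets, Gadd45 and Polo-like kinase genes 9 were called higher and 4 lower, with a median of 0.22. Plk2, a stress-induced Polo-like kinase, read 7.04, 6.61 and 6.72 and 10.40, 10.38 and 9.43, a change of 3.28 ± 0.26. Gadd45b, an activator of p38, read 6.49, 6.93 and 6.77 and 9.36, 9.12 and 9.46, a change of 2.59 ± 0.12, and its dimmer probe set rose by 0.71 without being called. Plk3 rose by 2.11 and Cdkn1a, the cyclin-dependent kinase inhibitor p21, by 1.33. The sestrins, which restrain mTORC1, moved apart: Sesn2 rose by 1.72 ± 0.24, while Sesn1 read 9.99, 9.98 and 10.02 untreated and 8.21, 8.13 and 7.74 treated, a change of -1.97 ± 0.14. The untreated Sesn1 arrays lay within a few hundredths of each other.

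Of 28 integrated stress response genes 8 were called higher and 2 lower, with a median of 0.06. Ppp1r15a, the phosphatase subunit that restores translation, rose by 2.10 ± 0.19, and Chac1 by 0.82. Atf4, the factor at the centre of that response, changed by 0.41 ± 0.20 (adjusted p = 0.162), and Eif2ak3, the PERK kinase, fell by 0.85 ± 0.14. Of 29 oxidant, haem and metal genes 5 were called higher and 5 lower, or 8 and 2 with a common SD and 6 and 2 without the replicate 3 arrays. Hmox1, haem oxygenase, rose by 1.20 ± 0.31. Its call was lost without untreated replicate 3 or treated replicate 2 and with only the 6 arrays (adjusted p up to 0.119). Slc30a1, a zinc exporter, rose by 1.17 ± 0.15. Txnip, which inhibits thioredoxin and glucose uptake, read 10.36, 10.29 and 10.18 and 8.65, 8.68 and 8.36, a change of -1.71 ± 0.16. Ndrg1 read 8.16, 8.09 and 8.29 and 11.18, 11.12 and 10.83, a change of 2.87 ± 0.11, and Hilpda, a lipid droplet protein, rose by 2.56 ± 0.26. Both are known as genes of low oxygen. Of 24 hypoxia and glycolysis genes 6 were called higher (25%) and 4 lower (16.7%), beside 6.85% and 12.1% over all genes. In this list Pfkfb3 and Pdk1 fell by 0.95 and 0.72.

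Of 24 Bcl2 family and death genes 3 were called higher (12.5%) and 6 lower (25%), beside 6.85% and 12.1% over all genes. With median centring they were 4 and 4, with quantile normalization or a common SD 5 and 4, and with array weights 7 and 7. Bcl2l11, the death promoting protein Bim, rose by 1.62 ± 0.20, and Cflar, an inhibitor of caspase 8, by 1.24 ± 0.27, while Casp2 fell by 1.12 ± 0.09. The Cflar call was lost with only the 6 arrays (adjusted p = 0.0901), and a dimmer Cflar probe set changed by -0.14. Of 31 S phase genes 0 were called higher and 11 lower, with a median of -0.30, or 5 lower and a median of -0.08 with a common SD. With the replicate block 16 were lower, and with array weights 17. Tyms, thymidylate synthase, read 5.59, 5.54 and 5.42 and 3.99, 4.09 and 3.72, a change of -1.58 ± 0.15, but its other probe sets changed by 0.27 and -0.00. Of 32 mitotic genes 0 were called higher and 6 lower (18.8%, beside 12.1% over all genes), with a median of -0.25. With a common SD 2 were higher and 1 lower, with a median of -0.07.

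Of the lists described, the zinc finger genes named Zfp held the most falls by count, being the largest list. Of 157 measured 6 were called higher (3.82%) and 47 lower (29.9%), with a median of -0.17, beside 6.85% and 12.1% over all genes. The share called lower was larger among Rgs genes (37.5%, 3 of 8), S phase genes (35.5%), Toll-like receptors and adaptors (35.3%) and chemokine and cytokine receptors (33.3%). Blocking on the replicate number, 12 were higher and 59 lower, and with a common SD 8 and 36. Zfp61 read 5.86, 6.24 and 5.71 and 4.53, 4.14 and 3.99, a change of -1.71 ± 0.16, and Zfp53 fell by 1.46 ± 0.18. Zfp36, the decay factor of AU-rich messages, rose by 2.12 ± 0.22, and Zfp703 by 1.45 ± 0.15. Of 31 myeloid lineage factors 4 were called higher and 7 lower, or 5 and 4 with a common SD. Runx1, a factor of blood cell development, rose by 1.11 ± 0.11, with its other 4 probe sets not called, and Irf2, a repressor of interferon genes, fell by 1.01 ± 0.17, a call lost with only the 6 arrays (adjusted p = 0.0544). Stambp, a deubiquitinase that acts on endosomes, read 7.80, 7.41 and 7.28 and 5.87, 5.62 and 5.89, a change of -1.70 ± 0.14. Capn7, a calpain-type protease, read 9.17, 9.08 and 9.40 and 7.35, 7.48 and 7.21, a change of -1.87 ± 0.12. The uncharacterised gene 4632415L05Rik fell from 7.60, 8.32 and 7.94 to 6.55, 6.08 and 5.26, a change of -1.99 ± 0.23.

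The medians of housekeeping groups moved with the scaling. Of 41 cytosolic ribosomal protein genes 0 were called higher and 2 lower, with a median of 0.00, or 4 and 1 with a median of 0.29 with a common SD. Of 78 oxidative phosphorylation genes 0 and 4 were called, with a median of -0.13 that turned to 0.12 with a common SD. Of 73 mitochondrial ribosomal protein genes 0 and 12 were called, with a median of -0.19, or -0.01 with a common SD. In this list 4 were lower with a common SD, 18 with the replicate block and 38 with array weights. The mitochondrial ribosomal median stayed below 0 under every alternative run.

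The step from 20 to 50 µg/ml was tested directly on their 6 arrays within the same fit. Of 12393 genes 0 were called higher (0%) and 0 lower (0%) at 50 µg/ml. The smallest adjusted p over 22626 probe sets was 0.231, and 979 had an unadjusted p under 0.05. The 95% interval of the difference lay within 2-fold for 128 of the 139 genes that had risen at least 2-fold against untreated cells and for 133 of the 142 that had fallen as much. Rhob read 11.30, 11.12 and 10.53 at 20 µg/ml, and its 50 minus 20 difference was -0.10 ± 0.28. Cxcl2 read 11.83, 11.92 and 12.05, a difference of 0.13 ± 0.13, and Fos read 9.32, 9.42 and 9.77, a difference of 0.74 ± 0.19 (adjusted p = 0.565). A block for the replicate number left 3 genes lower at 50 than at 20 µg/ml: Txnip by 0.72, Plau by 0.72 and Tent5c by 0.85 (adjusted p = 0.0172, 0.0130 and 0.0172). With array weights, 233 genes were higher and 294 lower.

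**Figure D4:**
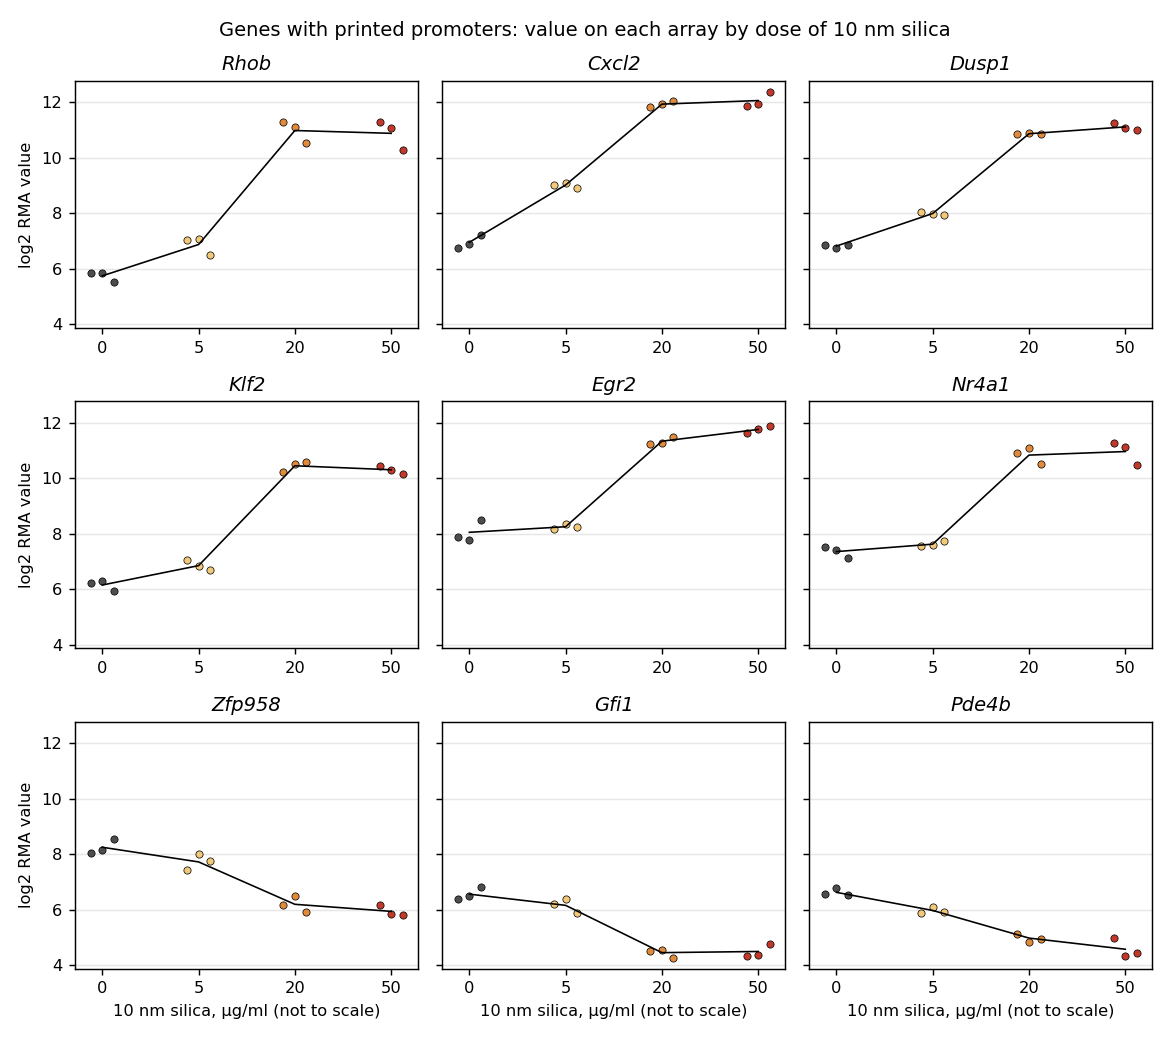
Each dot is 1 array's log2 RMA value (y axis) for untreated cells (0) and for 10 nm silica at 5, 20 and 50 µg/ml (x axis, equally spaced, n = 3 each); lines join the means. The 50 minus 20 µg/ml difference is largest in Egr2 (0.42) and Pde4b (-0.40), neither of them called. Rhob lies at 10.98 ± 0.41 and 10.88 ± 0.53 (mean ± SD) at 20 and 50 µg/ml. The values at 5 µg/ml lie nearer the untreated arrays.

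At 5 µg/ml the same genes stood lower, with the same untreated arrays as control. Cxcl2 read 9.03, 9.10 and 8.92 at 5 µg/ml, a change of 2.07 ± 0.13 against untreated cells (adjusted p = 2.28e-08), beside 5.11 ± 0.13 at 50 µg/ml. Rhob changed by 1.13 ± 0.28 (adjusted p = 0.0852) and Nr4a1 by 0.27 ± 0.18 (adjusted p = 0.906) at 5 µg/ml. The difference between these doses was not tested.

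The high doses of the sizes, 50 µg/ml of 10 nm and 1000 µg/ml of 500 nm silica, were compared directly; they differ in mass and in nominal surface area as well as in size. With 10 nm silica 393 of 12393 genes were higher (3.17%) and 484 lower (3.91%). Blocking on the replicate number, 726 and 1155 were called, with array weights 2512 and 3091, and with only the 6 arrays 85 and 57. Without 10 nm replicate 3, 500 nm replicate 1 or 500 nm replicate 2, 279, 253 and 278 genes were lower. Of the 139 genes that rose at least 2-fold with 10 nm silica, 56 were higher and 11 lower than with 500 nm silica, and 72 were not called. Among all 139, called or not, 71 had an interval within 2-fold, and some uncalled genes had an interval that reached beyond it. Of the 142 that fell as much, 38 were lower and 6 higher, and 98 were not called. The genes were chosen by the same 10 nm arrays, which favours these directions, so nothing is read from the balance. Klf2 read 7.50, 7.50 and 7.65 with 500 nm silica, and its 10 nm minus 500 nm difference was 2.75 ± 0.13 (adjusted p = 3.52e-10). Nr4a2 read 5.63, 5.78 and 5.65 with 500 nm silica, close to its untreated arrays, and differed by 2.32 ± 0.13. Egr2 differed by 2.42 ± 0.15, Nr4a1 by 2.34 ± 0.18 and Rhob by 2.23 ± 0.28. Of the 18 Egr, Nr4a and Klf factors 8 were higher and 0 lower with 10 nm silica, beside 3.17% and 3.91% over all genes. Of the 18 AP-1 factors 1 was higher and 3 were lower. Of the 18 NF-kB subunits and inhibitors 0 were higher and 8 lower, and of 27 cholesterol and lipid genes 3 were higher and 8 lower.

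Malat1, a long noncoding RNA of nuclear speckles, read 9.07, 11.27 and 10.05 untreated, 12.02, 12.14 and 12.20 with 10 nm and 9.69, 9.24 and 9.94 with 500 nm silica, a difference between the sizes of 2.50 ± 0.35. The untreated arrays were widely spread, the second probe set rose by 0.49 against untreated cells without being called, and the call against untreated cells was lost with only the 6 arrays (adjusted p = 0.0726). Other genes were lower with 10 nm than with 500 nm silica. Slc7a11, the cystine transporter that feeds glutathione synthesis, read 7.28, 7.23 and 7.30 untreated, 7.40, 7.08 and 7.22 with 10 nm and 9.33, 9.70 and 9.14 with 500 nm silica, a difference of -2.16 ± 0.13. Slc40a1, the iron exporter ferroportin, differed by -1.94 ± 0.21 and Ccrl2, an atypical chemokine receptor, by -1.85 ± 0.13. H1f2, a linker histone gene, read 8.70, 8.52 and 8.26 with 10 nm and 10.57, 10.53 and 10.60 with 500 nm silica, a difference of -2.07 ± 0.11. Against untreated cells H1f2 rose by 0.57 with 10 nm silica, a call lost with only the 6 arrays (adjusted p = 0.0996). Gpr84 read 10.23, 10.11 and 10.28 with 500 nm silica, near its untreated arrays, and differed by -1.46 ± 0.09 (adjusted p = 6.51e-09).

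**Figure D5:**
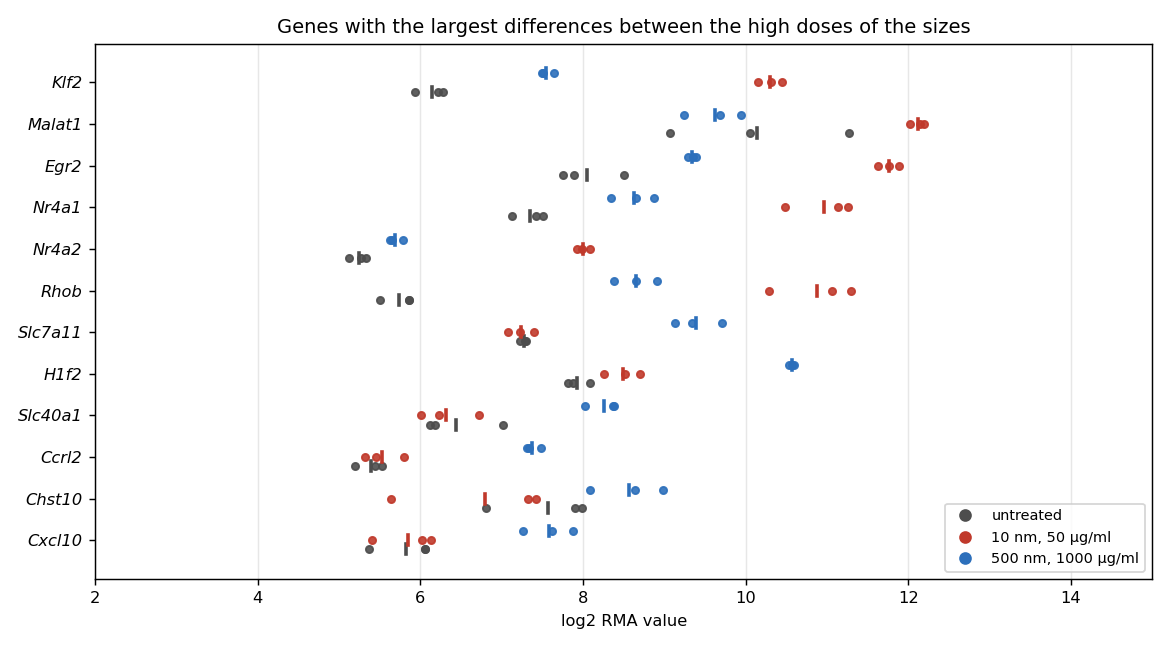
Each dot is 1 array's log2 RMA value (x axis) in untreated cells (grey), with 10 nm silica at 50 µg/ml (red) and with 500 nm silica at 1000 µg/ml (blue), n = 3 each; bars are means. The first 6 genes are the largest differences above the 500 nm group, from 2.75 (Klf2) to 2.23 (Rhob), and the last 6 the largest below it, from -2.16 (Slc7a11) to -1.74 (Cxcl10).

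Many genes were measured by several probe sets, which gives a second reading of a change from the same RNA. Of the 139 genes that rose at least 2-fold, 63 had a second probe set, which changed in the same direction in 63 and was called in 51. Of the 142 that fell as much, 57 had one, which changed in the same direction in 48, was called lower in 28 and was called higher in 0. Among all called genes, a second probe set had the same sign in 294 of 346 higher and 565 of 679 lower genes. It was called the same way in 95 and 229 of these genes and the opposite way in 4 and 7. A further 726 genes had another probe set called although the brightest was not. Neighbouring genes on a chromosome that both changed at least 2-fold were Ccl3 and Ccl4, Grasp and Nr4a1 (1.69 and 3.61), Crot and Tmem243 (-1.28 and -1.16), and Rbl2 and Aktip (-1.29 and -1.15). In each pair both genes moved the same way. The Tmem243 call was lost with only the 6 arrays (adjusted p = 0.0758).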

How the data were processed

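Total RNA was copied from an oligo-dT primer and labelled with biotin, per the labels' protocols, a reaction weighted toward the 3 prime end of each transcript, and hybridised to Affymetrix mouse arrays. The authors ran RMA, per the submitters' processing notes, and deposited 1 log10 value for each probe set on each array; RMA's version and settings are not stated. The log base was read from the values, and every fold change rests on that reading. Multiplying by 3.32 gave log2 values. RMA equalises arrays and compresses changes of dim probe sets.

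Of 22690 probe sets 64 were controls. Of the other 22626, the platform annotation, possibly old, named 1 gene for 20380, several for 691 and none for 1555, and 20351 matched the mouse reference table. They gave 12393 genes, each read from its brightest probe set, and 4956 of these had several. Arrays have no depth, and their number, 3 a group, limits the precision.

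All 21 arrays were fitted with limma 3.58.1 in R 4.3.3 (group as the only factor, lmFit and eBayes, two-sided, Benjamini-Hochberg over 22626 probe sets), with 14 residual and 4.02 prior degrees of freedom and a median residual SD of 0.19. The fit was tested on simulated data with independent noise on every array. Those data held no deviation shared by same-numbered arrays, so the test cannot show how the fit handles one. Deviations from the group means of same-numbered untreated and treated arrays correlated at 0.516, 0.543 and 0.755, and on that basis the replicate numbers were taken to pair the arrays. Untreated replicate 1 with treated replicate 2 and untreated 2 with treated 1 correlated as closely, at 0.619 and 0.552, so only replicate 3 stood apart, and the labels give no source for the pairing. A fit with the replicate number as a block is therefore given for the counts over all genes and probe sets and for some lists. It also moved counts of lists for which it is not given. The chemokine and cytokine receptors, for example, went from 4 higher and 9 lower to 5 and 12.

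The members, 43 gene lists and motifs were chosen with earlier results of these data known, and not all of these lists are reported here. Named genes were the 15 largest rises and falls among called genes without overlap, up to 5 called members of each list, the 6 largest differences each way between groups, and other members of a described list. Promoters were shown for the first 6 rises and 3 falls with an entry. The alternatives were the block, the 6 arrays alone, median centring, quantile normalization, array weights, bright probe sets only, 1 probe set per gene, a trended spread and leaving out each array. Leaving out all replicate 3 arrays and scaling arrays to a common median and SD were chosen after seeing the data. Python 3.11.15 with matplotlib 3.10.9 drew the figures.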

Additional observations from a re-analysis of the deposited data

Results flagged for a closer look

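12 genes were singled out because their values at the high dose of 10 nm silica differed from those at the high dose of 500 nm silica in limma's direct test; they are the 6 largest called differences each way. Higher with 10 nm silica were Klf2 (2.75 on the log2 scale), Malat1 (2.50), Egr2 (2.42), Nr4a1 (2.34), Nr4a2 (2.32) and Rhob (2.23). Lower with 10 nm silica were Slc7a11 (-2.16), H1f2 (-2.07), Slc40a1 (-1.94), Ccrl2 (-1.85), Chst10 (-1.77) and Cxcl10 (-1.74). Chst10, a sulfotransferase, rested on few arrays: it read 7.42, 7.32 and 5.64 with 10 nm and 8.64, 8.98 and 8.09 with 500 nm silica, and its call was lost under 2 of the settings that leave out an array (adjusted p up to 0.0582). The doses differ in mass and surface area, so size and dose cannot be told apart.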

How the results depend on the processing

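Of 127 called genes for which the text gives a change against untreated cells, 97 kept their direction and call under every alternative that gave them a value, and 28 lost the call with only the 6 arrays. The wider set of 232 genes, picked by the naming rule or given in the text, was less stable. In it 121 kept direction and call status under every alternative, and 106 lost the call with only the 6 arrays. The counts of probe sets without a size bound moved most. With the replicate block they were 3281 higher and 3937 lower than in untreated cells, 0 higher and 6 lower than at 20 µg/ml, and 1478 higher and 1739 lower than with 500 nm silica. With array weights they were 5453 and 5285, 421 and 539, and 4550 and 5201 in the same order. With only the 6 arrays compared they were 342 and 671 against untreated cells, and 216 and 86 against 500 nm silica. With 1 probe set per gene they were 939 and 1567, 139 and 142 at 2-fold or more, and 418 higher than with 500 nm silica. Bright probe sets alone gave 793 higher and 179 at least 2-fold lower, and a common median and SD gave 1609 lower. Leaving out 1 array gave 865 to 1952 higher than untreated and 360 to 719 lower than with 500 nm silica. The paired block ended none of these 127 calls. Ctss and Uqcrb, which were called lower, turned to 0.046 and 0.084 with a common median and SD (adjusted p = 0.852 and 0.716). Cxcl10, which was not called, turned to -0.0025 with quantile normalization and ran from -0.21 to 0.25 when 1 array was left out. The causes of these shifts were not tested.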

Other observations

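Some gene groups outside those described above also held called members, beside 6.85% of all genes called higher and 12.1% called lower. Lysosomal genes (7.41% and 11.1%) and cholesterol and lipid genes (7.41% and 14.8%) lay near these shares, and interferon-stimulated genes (3.23% and 9.68%) below them. Of 16 circadian clock genes 4 were called higher and 4 lower: Per1, a repressor of the clock that is also induced by signalling, rose by 0.90 ± 0.15, while Cry2 and Cry1, its partners, fell by 0.75 ± 0.13 and 0.65 ± 0.13. The Cry1 call was lost with only the 6 arrays (adjusted p = 0.0792). Of 28 Myc network, Id, Hes and TGF-beta factors 5 were called higher and 3 lower, with Bhlhe40, a repressor that responds to many stimuli, higher by 1.81 ± 0.19 and Id3, an inhibitor of basic helix-loop-helix factors, lower by 0.80 ± 0.15. Of 23 cytokine feedback genes 5 were called higher and 3 lower, with Pim3, a survival kinase, higher by 1.05 ± 0.12 and Jak2, a cytokine receptor kinase, lower by 0.79 ± 0.14.

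Of 32 chromatin genes 6 were called higher and 6 lower, or 6 and 3 with quantile normalization, and Brd2, a reader of acetylated histones, rose by 1.13 ± 0.12, from 10.43, 10.85 and 10.97 to 11.96, 11.85 and 11.83. Of 26 splicing genes 7 were called higher and 2 lower, with Clk4 and Clk1, kinases of splicing factors, higher by 0.94 ± 0.14 and 0.71 ± 0.11 and Clk2, another of these kinases, lower by 0.52 ± 0.16. The Clk2 call was lost without untreated replicate 1, untreated replicate 2 or treated replicate 3 and with only the 6 arrays (adjusted p up to 0.191). Of 21 heat shock genes 4 were called higher, among them Dnajb9, a chaperone of the endoplasmic reticulum, by 1.53 ± 0.13, and 0 lower. Of 27 cholesterol and lipid genes 2 were called higher and 4 lower: Plin2, a coat protein of lipid droplets, rose by 0.87 ± 0.09, and Abca1, the cholesterol exporter, fell by 1.29 ± 0.23, a call that was lost with only the 6 arrays (adjusted p = 0.0684) and that its dimmer probe sets did not reach. Of 31 interferon-stimulated genes 1 was called higher and 3 lower, and Ifit2 fell by 1.38 ± 0.16. Of 27 lysosomal genes 2 were called higher and 3 lower, or 2 and 0 with median centring, 4 and 0 without the replicate 3 arrays and 7 and 0 with a common SD. Ctsl, a cathepsin, rose by 0.73 ± 0.17, a call that was lost with only the 6 arrays (adjusted p = 0.106).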
